A study of Mus musculus with 6 samples.

Results

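R-spondins are secreted proteins that strengthen the response of cells to Wnt, and the 9 mouse genes described here are the 4 R-spondins (Rspo1, Rspo2, Rspo3 and Rspo4), their 3 leucine-rich repeat receptors (Lgr4, Lgr5 and Lgr6) and the 2 membrane ubiquitin ligases that they act on (Znrf3 and Rnf43). They were taken by name out of 19679 gene symbols, with RPKM (reads corrected for the transcript's length and the library's mapped reads) summed over the transcripts of each symbol. Cells sorted from the mandible, the lower jaw bone, were compared with cells sorted from the tibia, the shin bone. All 6 libraries came from Col1a1*2,3-GFP transgenic mice at postnatal day 9, in which a Col1a1 promoter fragment drives green fluorescent protein. Each of 3 independent dissections pooled bones of about 50 mice and gave 1 mandible and 1 tibia library from the GFP-positive cells of a collagenase digest. Neither group carried a treatment or a further allele. Levels of single libraries are given in the order of dissections 1, 2 and 3. Col1a1, which encodes a chain of type I collagen, is also transcribed in odontoblasts, tendon and other fibroblasts, so the gate need not take osteoblasts alone. The study asked which transcription factors set mandible osteoblasts apart from those of the tibia.

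ZNRF3 and RNF43 tag Frizzled receptors for removal from the cell surface and so dampen Wnt signalling. An R-spondin binds one of these ligases together with an Lgr receptor, the ligase is cleared from the membrane, and Frizzled and its co-receptor LRP6 accumulate. Both ligase genes are themselves Wnt targets in many tissues, which makes a feedback loop, and Wnt signalling promotes bone formation by osteoblasts. Human RSPO4 is known for inherited absence of nails, and Rspo2 for limb and craniofacial development in the mouse.

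Read totals recovered from the RPKM steps lay between 49.2 and 58.1 M a library, and between 10765 and 11249 genes reached 1 RPKM. All 7 osteoblast markers (Runx2, Sp7, Col1a1, Alpl, Ibsp, Bglap and Dmp1) were at 1 RPKM or more in every library. The libraries of dissection 3 stood apart at both sites. Col1a1 was at 5566 RPKM in mandible library 3, with 17291 and 17057 in mandible libraries 1 and 2, and at 7990 RPKM in tibia library 3, with 26205 and 24442 in tibia libraries 1 and 2. Haemoglobin transcripts held 0.717% to 4.51% of summed RPKM in mandible libraries and 1.87% to 9.78% in tibia libraries, and the highest share at each site was that of dissection 3. In bulk samples, fewer cells of a type and less RNA per cell cannot be told apart.

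The promoters of Rspo4, Rspo1 and Rnf43 are shown because these are the 3 genes of the 9 that were far higher in the mandible than in the tibia. Each is the stretch of 250 bases before to 50 bases after the annotated start, on the plus strand of GRCm38.p6, from RefSeq, with every CG dinucleotide in capitals. RefSeq promoters were matched for 5 of the 9 genes (these 3, Lgr4 and Lgr6). They lie at chr2:151842677-151842976 for Rspo4, chr4:124986180-124986479 for Rspo1 and chr11:87662837-87663136 for Rnf43. The measured Rspo4 transcript starts at base 151842927 in GENCODE M21, inside its window, and that of Rspo1 at base 124986430. The RefSeq gene spans, which also take in predicted transcripts, begin earlier, at bases 151842647 and 124986401, so by the span the whole Rspo4 stretch lies within the gene.
Rspo4: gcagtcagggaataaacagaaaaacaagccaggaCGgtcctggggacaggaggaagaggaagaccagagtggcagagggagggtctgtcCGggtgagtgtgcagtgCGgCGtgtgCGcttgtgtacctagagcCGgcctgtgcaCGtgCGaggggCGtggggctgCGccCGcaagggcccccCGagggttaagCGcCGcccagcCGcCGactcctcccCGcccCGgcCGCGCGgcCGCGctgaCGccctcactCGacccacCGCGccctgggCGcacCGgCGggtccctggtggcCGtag
Rspo1: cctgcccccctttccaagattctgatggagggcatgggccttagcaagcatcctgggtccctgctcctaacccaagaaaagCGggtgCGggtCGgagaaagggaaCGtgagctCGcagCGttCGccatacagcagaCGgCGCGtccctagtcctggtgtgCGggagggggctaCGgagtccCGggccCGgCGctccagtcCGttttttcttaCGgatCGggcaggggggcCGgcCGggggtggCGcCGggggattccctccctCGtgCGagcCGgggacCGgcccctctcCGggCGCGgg
Rnf43: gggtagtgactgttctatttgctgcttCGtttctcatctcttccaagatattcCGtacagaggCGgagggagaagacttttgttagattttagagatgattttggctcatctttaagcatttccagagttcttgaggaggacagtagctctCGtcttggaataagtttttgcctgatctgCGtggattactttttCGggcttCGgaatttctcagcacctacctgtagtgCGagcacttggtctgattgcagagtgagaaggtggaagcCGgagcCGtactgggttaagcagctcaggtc

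The Rspo4 stretch held 31 CG dinucleotides with 71.0% G and C, and the Rspo1 stretch held 29 with 69.0%. Over all 32851 promoters of the same length the median was 7 CG dinucleotides and 52.7% G and C. As many CG as in Rspo4 were found in 10.6% of all promoters, and as many as in Rspo1 in 12.9%. The Rnf43 stretch was closer to the median, with 10 CG dinucleotides and 46.7% G and C, and 43.5% of promoters held as many. A second annotated Rnf43 start, at chr11:87699647-87699946, had 3. The Lgr4 and Lgr6 stretches had 18 and 24. Words bound by TCF and LEF factors, the transcription factors that act downstream of Wnt (CTTTG followed by any 2 of the letters A and T), were searched on both strands and none lay in these stretches, against 16.9% of all promoters with a match. The RUNX words TGTGGT and TGCGGT, bound by factors such as Runx2 of osteoblasts, were likewise not found, against 22.4% of all promoters. These letters were absent from these windows, and nothing follows for sites elsewhere.

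Of the 4 ligands, Rspo4 held most of the R-spondin RPKM in the mandible cells and Rspo3 most of it in the tibia cells. Summed over the 4 genes, R-spondin RPKM was 36.2, 37.6 and 11.0 in the mandible and 2.55, 3.22 and 2.30 in the tibia. Rspo4 made up 92.8%, 94.4% and 89.0% of that sum in the mandible and 3.70%, 3.03% and 1.77% in the tibia. Rspo3 made up 2.28%, 1.58% and 2.05% in the mandible and 70.6%, 73.9% and 86.7% in the tibia. The same gene led in every library of a site, with no exception among the 6. Rspo2 was second in every library, at 3.59%, 2.56% and 5.87% in the mandible and 25.3%, 23.1% and 11.5% in the tibia.

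**Figure D1:**
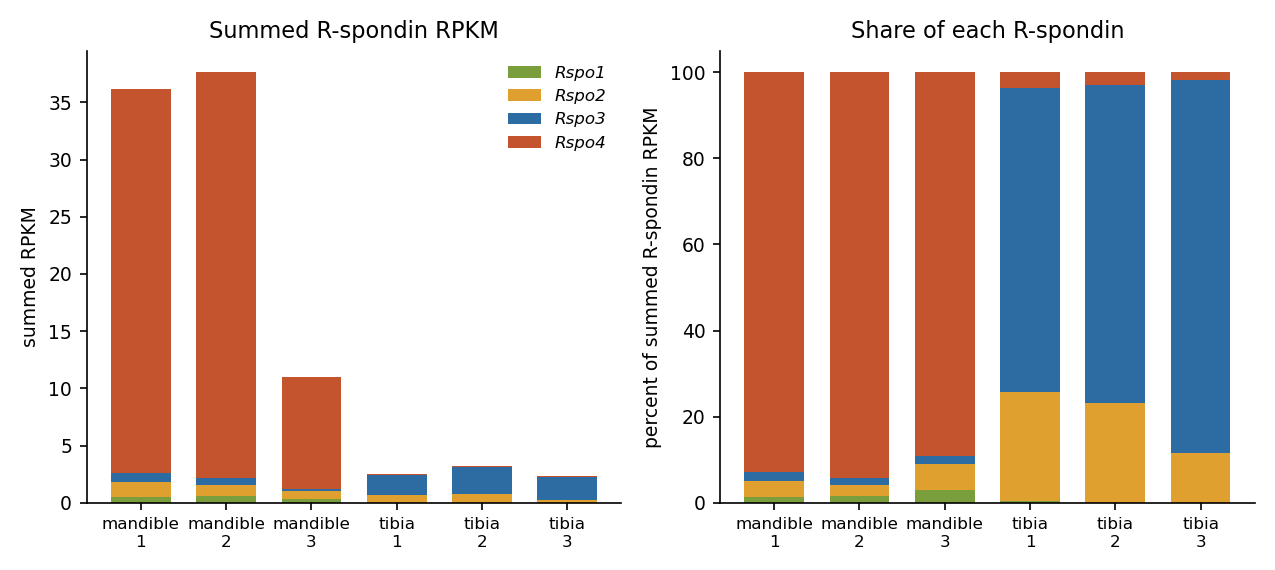
Left, summed RPKM of the 4 R-spondin genes in each library, and right, the percent of that sum from each gene, with mandible libraries left of tibia libraries and colours for the genes. Rspo4 fills 89.0% or more of every mandible bar, and Rspo3 fills 70.6% or more of every tibia bar.

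Rspo4 (chr2:151842647-151874668; gene spans here and below are those of RefSeq on GRCm38.p6) was read at 33.6, 35.5 and 9.83 RPKM in the mandible and at 0.0944, 0.0974 and 0.0407 RPKM in the tibia. The lowest mandible library, that of dissection 3, was still far above the highest tibia library. Rspo4 averaged 26.3 ± 14.3 RPKM in the mandible and 0.0775 ± 0.0319 RPKM in the tibia (SD, n = 3 each), a ratio of the means of 340. The values stand for 3940, 4894 and 1206 reads in the mandible and 11, 12 and 5 reads in the tibia, a ratio of read rates of 344 with an exact interval of 238 to 518 that covers counting error only. As log2(RPKM + 0.5), in which folds of low genes come out too small, Rspo4 was higher by 5.34 (SE 0.48, 95% interval 4.20 to 6.47, limma adjusted p = 0.00491). Only 3 of the 12752 genes tested had a higher log2 fold change. These were the enamel genes Amelx (8.19) and Ambn (5.96) and the dentin gene Dspp (5.68). Within dissections 1, 2 and 3 the Rspo4 differences were 5.84, 5.91 and 4.26. Leaving out each library in turn kept the call in 6 of 6 fits (limma adjusted p between 0.000693 and 0.0423), with 5.88 when both libraries of dissection 3 were left out (adjusted p = 7.61e-05). With both libraries of dissection 1 left out the difference was 5.08 and the adjusted p 0.168, and with both of dissection 2 left out it was 5.05 and 0.182, 2 libraries a site remaining.

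Rspo4 was the 1 gene of the 9 that passed at an adjusted p under 0.05. The 6 genes with a mean of at least 0.5 RPKM over the 6 libraries entered the test (Rspo2, Rspo3, Rspo4, Lgr4, Lgr5 and Znrf3), and Rspo1, Lgr6 and Rnf43 lay under that limit. Over all 12752 genes tested, 124 passed, or 0.972%, of which 111 were higher in the mandible (0.87%) and 13 lower (0.102%). With the dissection as a block in the model, 828 genes passed (6.49%), 566 higher and 262 lower, and 2 of the 6 genes did: Rspo4 was higher and Rspo3 lower. The split of these 828 moved to 360 higher and 424 lower of 784 after quantile normalization, while the same 2 genes passed in the same directions. They also passed without the libraries of dissection 3, in a fit that called 724 of 12592 genes. Over all genes tested the log2 fold change had a median of 0.12, or -0.01 once the libraries were quantile normalized, so 0.12 is where the bulk of the genes lay. At an unadjusted p under 0.05 stood 1147 of the 12752 genes (8.99%).

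Rspo3 (chr10:29453106-29535867), an R-spondin of vessels and of mesenchyme, ran the other way. It was at 0.826, 0.596 and 0.226 RPKM in the mandible and at 1.8, 2.38 and 2.00 RPKM in the tibia. Every mandible library was below every tibia library. For this and the other genes whose sites did not overlap, the share of all genes so separated was not counted. The means were 0.549 ± 0.303 RPKM in the mandible and 2.06 ± 0.294 RPKM in the tibia (SD, n = 3 each), with the tibia 3.75 times as high. Its log2 fold change of -1.32 (SE 0.26, 95% interval -1.94 to -0.71) missed the threshold in the model with the site alone (limma adjusted p = 0.104) and passed with the dissection as a block (SE 0.22, adjusted p = 0.0225). In the model with the site alone, without the libraries of dissection 3, it was -1.09 and passed (limma adjusted p = 0.0337). That fit called 724 of 12592 genes. Without those of dissection 1 it was -1.59 (adjusted p = 0.545), without those of dissection 2 it was -1.29 (0.999), and it passed in neither. With any 1 of the 6 libraries left out it did not pass (adjusted p between 0.102 and 0.399). The differences within dissections 1, 2 and 3 were -0.79, -1.39 and -1.78. Endothelial markers summed to 25.3, 31.5 and 42.5 RPKM in the mandible and 96.0, 55.1 and 89.9 RPKM in the tibia. None of the 5 genes was at 0, and 0 of 5 passed with the site alone (limma). At an unadjusted p under 0.05 stood 5, beside 8.99% of all genes. With the block 5 of 5 passed, all lower in the mandible, beside 6.49% of all genes. Marrow stroma markers summed to 70.1, 80.3 and 36.4 RPKM in the mandible and 220, 139 and 39.3 in the tibia, with 0 of 3 genes passing (2 unadjusted) and 2 lower with the block. The part of these cells in the Rspo3 difference was not tested.

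Rspo1 (chr4:124986401-125009102) was low throughout and nearly unread in the tibia. Its levels were 0.496, 0.563 and 0.337 RPKM in the mandible, against 0.0111 RPKM in tibia library 1 and 0 in tibia libraries 2 and 3. In reads, that was 45, 60 and 32 in the mandible and 1, 0 and 0 in the tibia. A count of 0 allows up to 3 reads, or 0.0315 and 0.0316 RPKM in tibia libraries 2 and 3. Over the 3 libraries of a site, 137 mandible reads stood against 1 tibia read, a ratio of read rates of 131.5 with an exact interval of 23.2 to 5230, counting error only. With a mean of 0.234 RPKM it stayed under the limit for testing, and its difference was 0.93 on the log2(RPKM + 0.5) scale. When all 19679 genes were tested without that limit, 92 passed (0.468%) and 3 of the 9 genes did, all higher in the mandible: Rspo4 (limma adjusted p = 0.0221), Rspo1 (SE 0.10, adjusted p = 0.0293) and Rnf43. With the dissection as a block as well, a fit added after seeing the data, 0 of the 19679 genes passed (3871 at an unadjusted p under 0.05), with adjusted p of 0.0590 for Rspo4 and 0.0727 for Rspo1 in limma. The size of the Rspo1 difference followed the constant added before the log, 2.43 with 0.1 and 0.54 with 1.

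Rspo2 (chr15:43020788-43171594) gave 1.30, 0.963 and 0.648 RPKM in the mandible and 0.646, 0.743 and 0.266 RPKM in the tibia. The ranges overlapped, since mandible library 3 was below tibia library 2, although the mandible was the higher one within each dissection. The averages were 0.970 ± 0.326 RPKM in the mandible and 0.552 ± 0.252 RPKM in the tibia (SD, n = 3 each). The log2 fold change of 0.49 (SE 0.27, 95% interval -0.14 to 1.12) did not pass (limma adjusted p = 0.708).

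**Figure D2:**
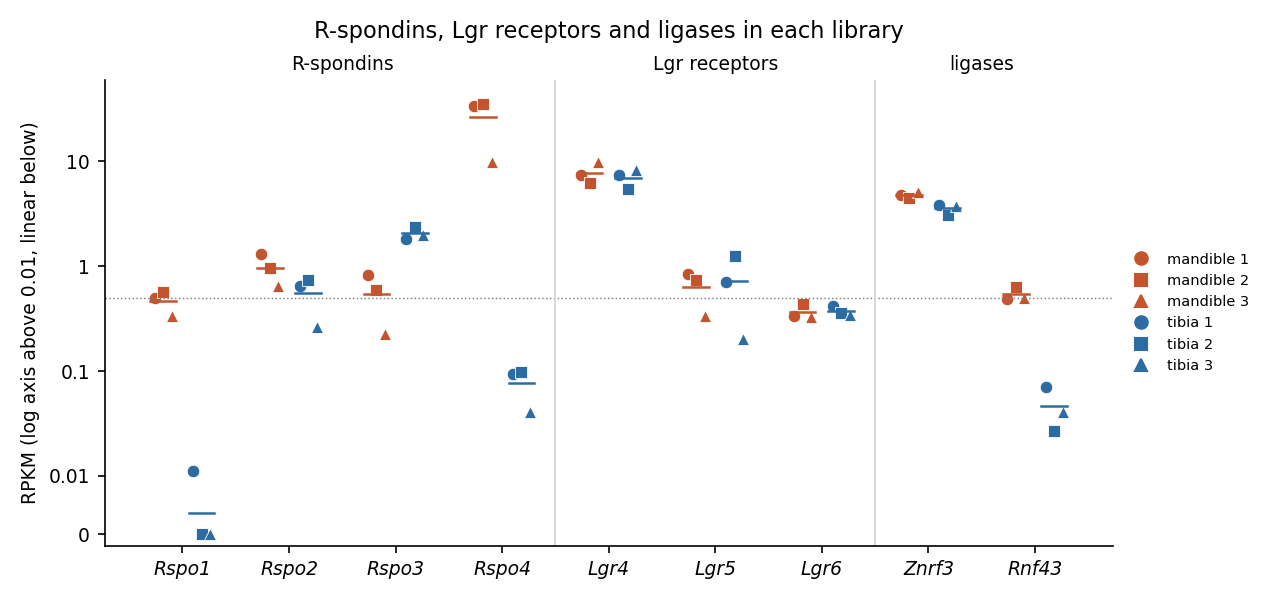
RPKM of each gene in each library (log axis above 0.01 RPKM, linear below), mandible in red left of tibia in blue, with a symbol for each dissection, a short line at each site mean and a dotted line at the 0.5 RPKM mean needed for testing. Rspo4, Rspo1, Rnf43 and, by a small margin, Znrf3 are separated between the sites with the mandible higher, and Rspo3 with the tibia higher. The sites overlap for Rspo2 and for each Lgr receptor. The share of all genes that are separated in this way was not counted.

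Of the receptors, neither Lgr4 nor Lgr5 passed in either model, and Lgr6 was under the limit for testing. Summed RPKM of the 3 Lgr genes was 8.53, 7.37 and 10.6 in the mandible and 8.49, 7.09 and 8.77 in the tibia. Lgr4 (chr2:109917647-110014257), the widely expressed receptor of the family, made up most of this sum in each library, at 7.35, 6.20 and 9.97 RPKM in the mandible and 7.36, 5.47 and 8.22 RPKM in the tibia. These ranges overlapped over most of their length. Lgr4 averaged 7.84 ± 1.93 RPKM in the mandible and 7.01 ± 1.41 RPKM in the tibia (SD, n = 3 each). The log2 fold change was 0.14 (SE 0.24, limma adjusted p = 0.962), and its 95% interval of -0.44 to 0.73 leaves room for a change in either direction. Its sign turned, at -0.03 and -0.01, when mandible library 3 or tibia library 2 was left out.

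Lgr5 (chr10:115450314-115587780), best known as a stem cell marker of intestine and hair follicle, was low and uneven at both sites. It stood at 0.844, 0.742 and 0.336 RPKM in the mandible and at 0.714, 1.26 and 0.203 RPKM in the tibia. Dissection 3 gave the lowest value at each site, and the sites overlapped. Means were 0.641 ± 0.269 RPKM in the mandible and 0.726 ± 0.529 RPKM in the tibia (SD, n = 3 each), with a log2 fold change of -0.04 (SE 0.37, 95% interval -0.92 to 0.84, limma adjusted p = 0.991). That sign turned with a constant of 0.1 (0.01) and with several libraries left out. Lgr6 (chr1:134983300-135105374), known in mice as a marker of skin stem cells, was at 0.335, 0.432 and 0.331 RPKM in the mandible and 0.421, 0.361 and 0.341 RPKM in the tibia. Its site means of 0.366 ± 0.0575 RPKM and 0.374 ± 0.0417 RPKM, mandible and tibia (SD, n = 3 each), were closer than the spread within either site. The Lgr6 difference was -0.02 on the log2(RPKM + 0.5) scale.

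Of the ligases, Rnf43 (chr11:87663087-87735539) was nearly unread in the tibia, and Znrf3 was well read at both sites. Rnf43 was at 0.487, 0.639 and 0.493 RPKM in the mandible and at 0.0708, 0.0268 and 0.0403 RPKM in the tibia. Its lowest mandible value was several times its highest tibia value. The means, 0.540 ± 0.0857 RPKM in the mandible and 0.0459 ± 0.0225 RPKM in the tibia (SD, n = 3 each), gave a ratio of 11.7. Read counts were 104, 160 and 110 in the mandible and 15, 6 and 9 in the tibia, a ratio of read rates of 12.0 with an exact interval of 8.24 to 18.0, counting error only. Like Rspo1 it lay under the limit for testing, with a log2 difference of 0.93, and in the fit without that limit it passed (SE 0.08, limma adjusted p = 0.0171), but not with the block added to that fit (adjusted p = 0.0754). With 0.1 in place of 0.5 as the added constant that difference was 2.13, and with 1 it was 0.56.

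Znrf3 (chr11:5276329-5444847), the more abundant ligase at both sites, was at 4.74, 4.46 and 5.09 RPKM in the mandible and at 3.87, 3.10 and 3.75 RPKM in the tibia. All mandible libraries were above all tibia libraries, by a small margin. The averages were 4.77 ± 0.317 RPKM in the mandible and 3.58 ± 0.414 RPKM in the tibia (SD, n = 3 each), and the log2 fold change of 0.37 (SE 0.17, 95% interval -0.03 to 0.78) did not pass (limma adjusted p = 0.611). It was the 1 gene of the 9 listed with 2 transcripts, whose values are estimated shares of common reads. The major transcript was at 4.04, 3.93 and 4.05 RPKM in the mandible and 3.46, 2.67 and 3.64 RPKM in the tibia. The minor transcript was at 0.703, 0.528 and 1.05 RPKM in the mandible and 0.408, 0.434 and 0.112 RPKM in the tibia. Ligase RPKM summed to 5.23, 5.10 and 5.59 in the mandible and 3.94, 3.13 and 3.79 in the tibia, nearly all of it Znrf3.

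**Figure D3:**
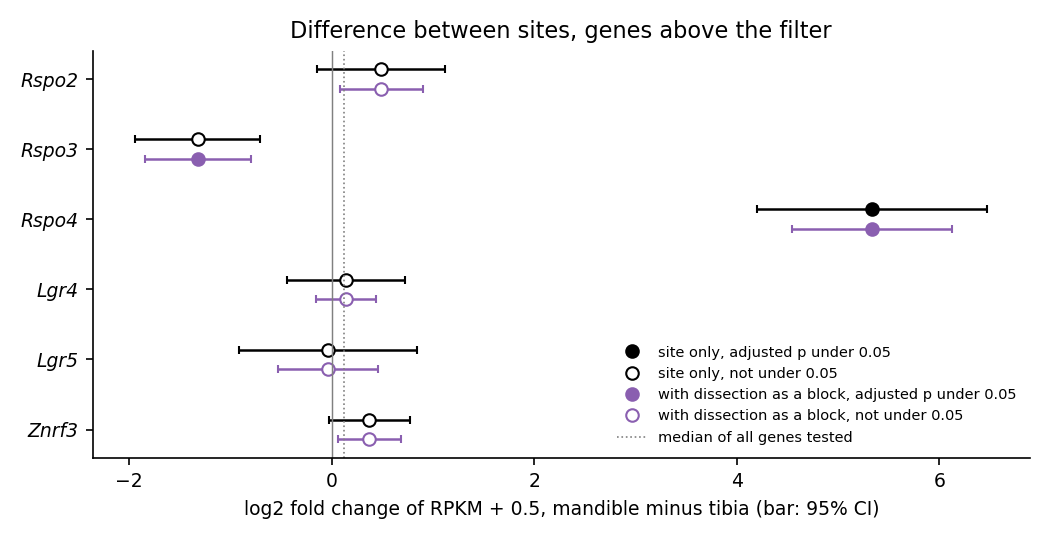
Log2 fold change of RPKM + 0.5, mandible minus tibia, with its 95% interval, for the 6 genes above the limit for testing, in the model with the site alone (black) and with the dissection as a block (purple), filled where the adjusted p is under 0.05. Rspo4 at 5.34 is filled in both models, Rspo3 at -1.32 with the block alone, and the other 4 in neither.

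Because RPKM is scaled by transcript length, the genes can also be ranked within a site. In the mandible the means ran Rspo4, Lgr4, Znrf3, Rspo2, Lgr5, Rspo3, Rnf43, Rspo1 and Lgr6, high to low. Rspo4 and Lgr4 overlapped there through library 3, with 9.83 RPKM for Rspo4 and 9.97 RPKM for Lgr4, and each of the 6 genes below Znrf3 overlapped with its neighbour in the order. The tibia order was Lgr4, Znrf3, Rspo3, Lgr5, Rspo2, Lgr6, Rspo4, Rnf43 and Rspo1. Here the first 4 were parted from each other in all libraries, the ranges of Lgr5, Rspo2 and Lgr6 overlapped, and so did those of Rspo4 and Rnf43. Rspo4 was thus first of the 9 in the mandible and seventh in the tibia.

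In the rest of the Wnt pathway, 1 of the 49 tested genes passed, out of 66 in 5 lists, of which 65 were in the table. Of the 8 tested Wnt receptors and co-receptors none passed (limma; 2 at an unadjusted p under 0.05, both higher, beside 8.99% of all genes), and their median log2 fold change was 0.19, beside 0.12 for all genes. Lrp6, the co-receptor that R-spondins help keep at the surface, averaged 3.08 ± 0.197 RPKM in the mandible and 2.61 ± 0.202 RPKM in the tibia, and Fzd1, the Frizzled with the highest mean, 2.48 ± 0.0816 and 2.12 ± 0.861 RPKM, mandible and tibia (SD, n = 3 each). Among 8 cytoplasmic genes none passed (0 unadjusted, median 0.07), with Ctnnb1, which encodes beta-catenin, at 52.9 ± 15.0 RPKM in the mandible and 48.8 ± 13.9 RPKM in the tibia. The kinase gene Csnk1a1 was at 12.5 ± 3.83 RPKM in the mandible and 10.2 ± 3.45 RPKM in the tibia.

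The 1 gene that passed was Wnt4, from the 9 tested ligand and secretion genes (median 0.15). Wnt4 was at 0.640, 0.695 and 0.736 RPKM in the mandible and at 2.26, 2.20 and 1.97 RPKM in the tibia. The sites did not overlap, and the tibia was the higher one, as with Rspo3. The log2 fold change was -1.15 (SE 0.16, limma adjusted p = 0.0268), and with any 1 of the 6 libraries left out it did not pass (adjusted p between 0.0504 and 0.192). Wls, the carrier that takes Wnt proteins to the cell surface, averaged 92.5 ± 12.1 RPKM in the mandible and 67.3 ± 9.58 RPKM in the tibia, and passed with the dissection as a block (0.46, limma adjusted p = 0.0398). Porcn, which attaches the lipid that Wnt proteins need, averaged 12.0 ± 1.12 RPKM in the mandible and 8.24 ± 2.64 RPKM in the tibia and passed in neither model.

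Among the 14 other partners of R-spondins, Lgr receptors and their ligases were 4 syndecans and 4 glypicans, cell surface proteoglycans, with mixed values. None of the 14 passed with the site alone (limma, median 0.10). At an unadjusted p under 0.05 stood 4, all higher, beside 8.99% of all genes. With the block 4 passed as higher, 2 syndecans and 2 glypicans, beside 6.49% of all genes. Sdc4, a syndecan that binds R-spondin 3, was at 351, 372 and 355 RPKM in the mandible and at 179, 166 and 197 RPKM in the tibia, with a log2 fold change of 0.99 (limma adjusted p = 0.152, and 0.00468 with the block). Its mandible values lay well above those of the tibia and had SDs of 11.0 and 15.9 RPKM, mandible and tibia. Gpc3, a glypican that binds Wnt and Frizzled, averaged 77.7 ± 6.18 RPKM in the mandible and 24.4 ± 10.5 RPKM in the tibia (1.74, adjusted p = 0.102, and 0.00743 with the block). Gpc6 (1.05) and Sdc1 (0.92) passed with the block as well (adjusted p = 0.00778 and 0.0154), whereas Sdc2, abundant at 98.2 ± 3.89 RPKM in the mandible and 91.0 ± 2.16 RPKM in the tibia, passed in neither model (SD, n = 3 each). The other syndecan, Sdc3 (0.08, adjusted p = 0.758 with the block), and the other glypicans, Gpc1 (-0.26, 0.181) and Gpc4 (-0.10, 0.620), did not pass either.

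Wnt target and feedback genes, the usual readout of the pathway, were mixed. Of 10 tested, none passed with the site alone (limma; 5 at an unadjusted p under 0.05, 4 of them higher, beside 8.99% of all genes, median 0.37), and 3 did with the block, 2 higher and 1 lower, beside 6.49% of all genes. Dkk1, a secreted antagonist of LRP6, averaged 20.4 ± 3.79 RPKM in the mandible and 10.3 ± 3.84 RPKM in the tibia (1.0, limma adjusted p = 0.0187 with the block). Notum, an enzyme that removes the lipid from Wnt proteins, averaged 5.09 ± 1.58 RPKM in the mandible and 2.71 ± 0.725 RPKM in the tibia (0.79, adjusted p = 0.0236 with the block). Apcdd1, a membrane inhibitor of Wnt, was on the other side, at 0.727 ± 0.201 RPKM in the mandible and 2.26 ± 0.811 RPKM in the tibia (-1.15, adjusted p = 0.0326 with the block). The general growth gene Myc, which many other signals also drive, was at 119 ± 47.6 RPKM in the mandible and 92.8 ± 50.9 RPKM in the tibia and passed in neither model (SD, n = 3 each). Without the libraries of dissection 3, 8 of the 49 pathway genes passed, 7 higher and 1 lower. Sdc4 (1.07), Gpc3 (1.43), Gpc6 (1.07), Sdc1 (0.94), Dkk1 (1.14) and Wnt4 (-1.23) were among them, and Notum (adjusted p = 0.0792), Wls (0.0666) and Apcdd1 (0.0623) were not.

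**Figure D4:**
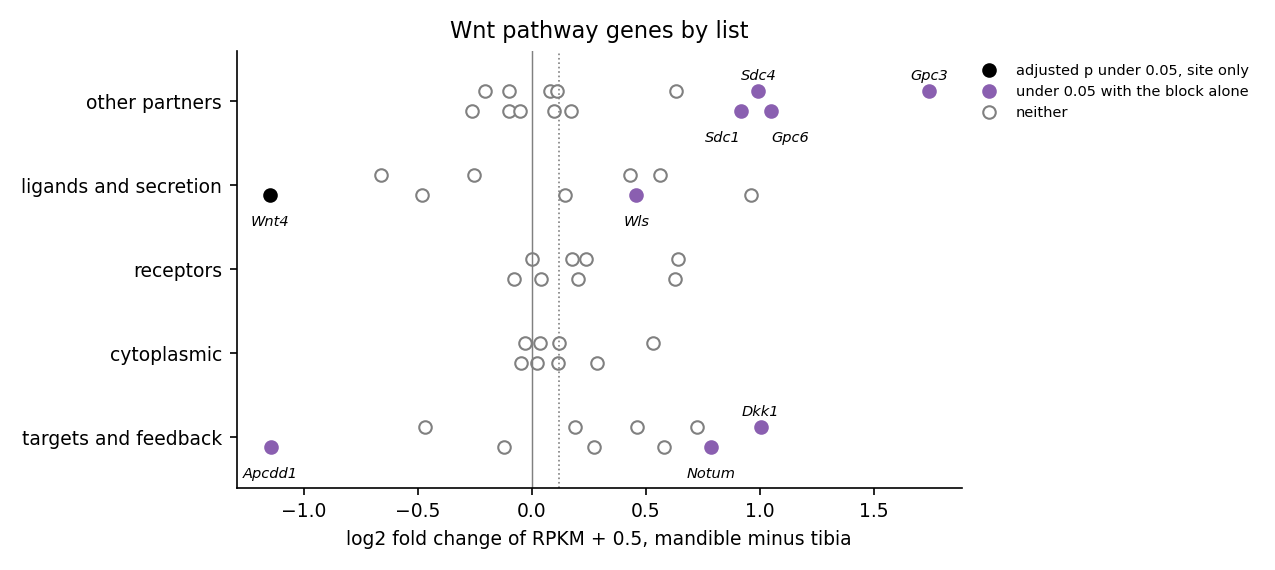
Log2 fold change of RPKM + 0.5, mandible minus tibia, for the 49 tested genes of 5 Wnt pathway lists, each point a gene, with the dotted line at 0.12, the median of all genes tested. Wnt4 at -1.15 is the 1 gene that passes with the site alone, and the 8 purple genes pass with the dissection as a block only.

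The genes closest to Rspo4 in their pattern over the libraries were ranked by Pearson r. The 5 genes with the highest Pearson r to Rspo4 over the 6 libraries, on the log2(RPKM + 0.5) scale, were Lhx8 (0.9991), Ptn (0.9988), Adamts19 (0.9982), Akp3 (0.9969) and Myo5b (0.9963). By Spearman rho, Ptn (0.8857) was closer than Lhx8 (0.8286). The 6 libraries fall into the 2 sites, which all these values share, and 235 genes had an r above 0.95. Lhx8, a LIM homeobox factor of oral and dental mesenchyme, was at 10.5, 11.9 and 4.66 RPKM in the mandible and at 0.113, 0.0292 and 0.0293 RPKM in the tibia. Its mandible library 3 was the lowest of that site, as it was for Rspo4, a likeness that follows from picking Lhx8 by correlation. Ptn, a heparin-binding growth factor, was at 372, 370 and 253 RPKM in the mandible and 111, 120 and 113 RPKM in the tibia.

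Genes from the marker lists of several other cell types passed as higher in the mandible. Which cells they were read from was not tested. The 5 odontoblast and dental mesenchyme genes (Dspp, Lhx8, Barx1, Pax9 and Msx1) summed to 82.2, 99.4 and 28.2 RPKM in the mandible and to 1.72, 1.66 and 2.93 RPKM in the tibia. Of these, 4 of 5 passed, all higher, with a median log2 fold change of 2.64, beside 0.87% of all genes that passed as higher. Dspp, Lhx8 and Barx1 averaged 0.155, 0.0572 and 0.00471 RPKM in the tibia. They met the limit for testing through the mandible alone, so a call as lower was not open to them. Barx1 was at 0 in tibia libraries 1 and 3. Dspp, the dentin matrix gene that defines odontoblasts, was at 52.5, 70.2 and 9.53 RPKM in the mandible and 0.0964, 0.135 and 0.235 RPKM in the tibia. Dspp, Lhx8 and Pax9 were lowest in mandible library 3 among the mandible libraries, as Rspo4 was, but Msx1 (11.3, 9.39 and 10.4 RPKM) and Barx1 (1.38, 1.25 and 1.33 RPKM) were not. Of the 7 osteoblast genes, Sp7 (41.5, 47.1 and 15.9 RPKM in the mandible), Alpl, Dmp1 and Col1a1 were also lowest in mandible library 3. Runx2 was lowest there by a small margin (15.0, 14.5 and 13.8 RPKM). Ibsp (2364, 2363 and 2600 RPKM) and Bglap (17983, 18534 and 28192 RPKM) were highest there. Besides the dental sum, the osteoblast, epithelium, periosteum and tendon, and marrow stroma sums were lowest in that library. The sums of the other marker lists were not. The part of dental cells in the Rspo4 difference was not tested.

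Ameloblast genes, which mark the enamel-forming epithelium, summed to 513, 1270 and 2184 RPKM in the mandible and 7.57, 6.73 and 9.79 RPKM in the tibia. Of 5 tested, 4 passed as higher, and Odam was at 0 in all tibia libraries. Enam and Mmp20, at tibia means of 0.0119 and 0.0163 RPKM, met the limit for testing through the mandible alone. Klk4, the tested gene that did not pass, averaged 0.727 RPKM in the mandible and 1.60 RPKM in the tibia (-0.61, limma adjusted p = 0.839). The sum was carried by Amelx and Ambn, at 1710 and 465 RPKM in mandible library 3, their highest, whereas Mmp20 (4.30, 10.1 and 2.89 RPKM in the mandible), Odam and Amtn were lowest in that library. Epithelial genes summed to 13.5, 24.1 and 11.5 RPKM in the mandible and 4.0, 3.88 and 4.66 RPKM in the tibia. Of 7 tested, 2 passed as higher, and 5 were higher at an unadjusted p under 0.05 (limma, beside 8.99% of all genes). Schwann cell genes summed to between 50.4 and 82.2 RPKM in the mandible and between 8.30 and 23.4 RPKM in the tibia. Of 4 tested, 2 passed as higher (2 unadjusted). Cartilage genes summed to between 96.5 and 188 RPKM in the mandible and between 19.1 and 38.9 RPKM in the tibia. Of 7 tested, 3 passed as higher (5 higher unadjusted). The ameloblast, epithelial, Schwann cell and cartilage counts stand beside 0.87% of all genes tested that passed as higher. None of the osteoblast, erythroid, myeloid and osteoclast, or periosteum and tendon markers passed with the site alone (limma), and 1 gene of the last list had an unadjusted p under 0.05. With the block, 6 of 6 erythroid genes were lower, as were Col1a1 (adjusted p = 0.0310) and Ptprc (0.0353), and Ibsp (0.0192) and Postn (0.0437) were higher. Summed RPKM of these 4 lists ran, mandible before tibia, from 37346 to 39425 and from 40018 to 49322 for osteoblast, 2197 to 20647 and 5576 to 42983 for erythroid, 606 to 879 and 598 to 730 for myeloid and osteoclast, and 645 to 1689 and 459 to 1676 for periosteum and tendon genes. The part of any of these cells in the differences of Rspo4, Rspo1 and Rnf43 was not tested.

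**Figure D5:**
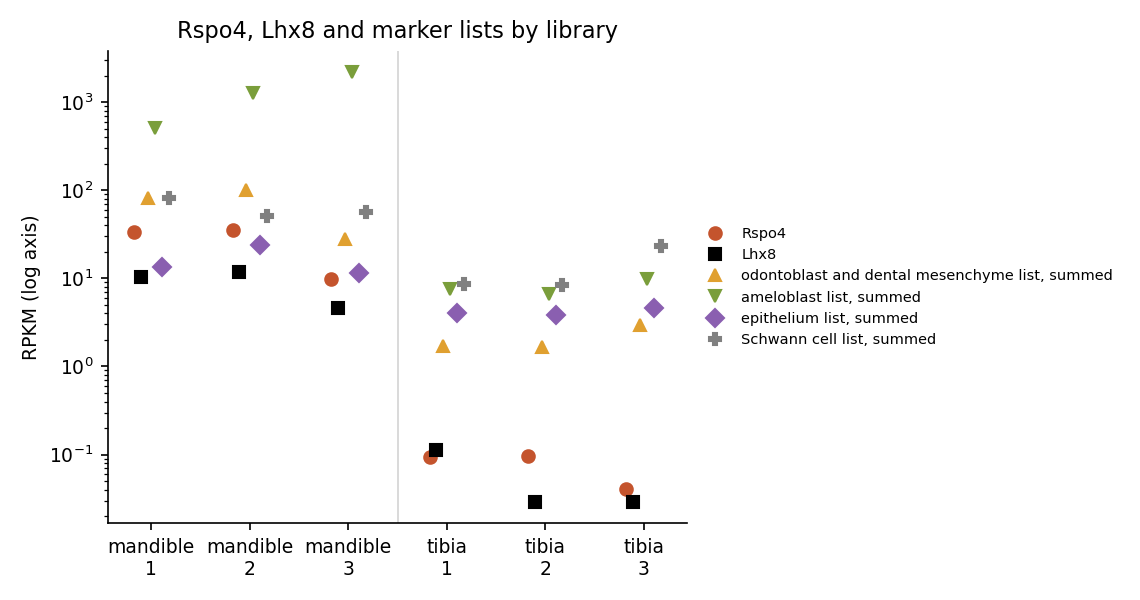
RPKM (log axis) of Rspo4 and Lhx8 and summed RPKM of 4 marker lists in each library, mandible left of tibia, each symbol 1 gene or list. In mandible library 3, Rspo4 (9.83 RPKM), Lhx8 (4.66 RPKM) and the odontoblast and dental mesenchyme sum (28.2 RPKM) are at their lowest for the mandible. So is the epithelium sum (11.5 RPKM), whereas the ameloblast sum (2184 RPKM) is at its highest. The osteoblast, periosteum and tendon, and marrow stroma sums, not drawn, were also lowest in mandible library 3. Lhx8 was picked for its correlation with Rspo4 over these libraries and is part of the odontoblast and dental mesenchyme sum. The odontoblast and dental mesenchyme sum and the ameloblast sum follow their most abundant genes (Dspp, and Amelx with Ambn).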

How the data were processed

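The deposited values are RPKM per RefSeq transcript, which the authors computed from RNA-seq of amplified cDNA (SMART-Seq v4 kit, 2 to 8 ng of RNA, per the labels' protocols). Per the file headers they were made with Partek 6.15.1207 on mm10, and CASAVA 1.8.2, TopHat2 2.1.0 and Partek 6.6 are named in the submitters' processing notes. Whether strand was used in counting is not given in the sources used. RPKM does not adjust for a small set of transcripts that dominates a library.

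Transcripts (30198) were summed per gene symbol (19679). Genes with a mean of at least 0.5 RPKM entered limma 3.58.1 (R 4.3.3; lmFit, eBayes with trend, site as the only term) as log2(RPKM + 0.5), two-sided, with Benjamini-Hochberg adjustment over all genes tested and a threshold of 0.05. The steps were tested on simulated data. Preparations were pools of mice, so the p-values rest on how far 3 pools per site differ and not on single mice. The genes described and all gene lists were chosen with earlier results of these data known. Named were all 9 genes, of each pathway list the genes passing with or without the block and the 2 with the highest mean RPKM, and the 5 genes most correlated with Rspo4. The genes singled out of the marker lists were picked after their values were seen.

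Read totals and read counts came from the RPKM steps of genes with 1 transcript and transcript lengths of GENCODE M21. At these totals between 63.3% and 66.5% of low values were whole reads to within 0.05. For Rspo1, Rspo4, Lgr4 and Rnf43 all 6 values did, and reads are given for these only. No count model was fitted.

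The libraries of a dissection share a number, and the labels' experiment names tie them together. Across genes, deviations from the site mean correlated within dissections 1, 2 and 3 at 0.594, 0.658 and 0.798, against 0.550 and 0.524 between dissections 1 and 2 and -0.709 to -0.641 between dissection 3 and the others. Values within dissections 1 and 2 were close to those between them, so the correlations set only dissection 3 apart. Taking the numbers as pairs rests on the labels and on dissection 3, and the block model was fitted beside the main one. Other alternatives were the constant added, the low-value limit, the scaling, the variance trend, 1 transcript per gene and libraries left out. Sequences came from RefSeq tables (GRCm38.p6). Plots used matplotlib 3.10.9 and Python 3.11.15.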

Additional observations from a re-analysis of the deposited data

How the results depend on the processing

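All 6 tested genes kept their direction under quantile normalization, median-of-ratios scaling, no variance trend, 1 transcript per gene and a limit of 1 RPKM, where they entered. With the dissection as a replicate block, 2 of the 9 genes, 9 pathway genes and 828 of all genes passed (limma), against 1, 1 and 124 without it, and Rspo3 passed (-1.32, adjusted p = 0.0225). It changed no other call among the 6 tested genes. The block with quantile normalization gave 2, 8 and 784, with Rspo3 at -1.48 (adjusted p = 0.0191).

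Without the low-value limit, 3 of the 9 genes, 0 pathway genes and 92 of all 19679 genes passed (0.468%, with 1921 at an unadjusted p under 0.05). Chosen after seeing the data, the same fit with a constant of 0.1 gave 3, 3 and 134 of 19679, with Rspo1 at 2.43 and Rnf43 at 2.13. Also chosen then, the fit with the block in place of the smaller constant gave 0, 0 and 0 (3871 of all genes unadjusted). Rspo4 was at 5.34 there (limma adjusted p = 0.0590, and 0.0727 for Rspo1 and 0.0754 for Rnf43). With the limit in place, Rspo1 was at 2.43 and 0.54 and Rnf43 at 2.13 and 0.56 for constants of 0.1 and 1. Lgr5 was reversed at 0.014 with a constant of 0.1, with and without the limit.

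Leaving out 1 library gave between 37 and 141 genes and between 0 and 1 pathway genes. Without both libraries of dissections 1, 2 and 3 in turn, the genes that passed were 6, 0 and 724 (469 unadjusted in the second), the pathway genes 0, 0 and 8 and the described genes 0, 0 and 2. Rspo4 was then at 5.08 and 5.05 without dissections 1 and 2, and Rspo3 at -1.09 without dissection 3 (adjusted p = 0.0337). With 1 library left out Lgr4 lay between -0.033 and 0.29, reversed without mandible library 3 or tibia library 2 (-0.014). Lgr5 lay between -0.39 and 0.27, reversed without mandible library 3 (0.17), tibia library 1 (0.0055) or tibia library 2 (0.27), and at 0.20 without dissection 2. The cause of these changes was not tested, beyond the fewer libraries or the larger number of genes in such fits. With 0 to 15 reads a library, tibia levels of Rspo1, Rspo4 and Rnf43 are near the limit of detection, so the size of their ratios is less certain than the direction.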

Other observations

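Neighbours here are the nearest protein-coding genes in the table that do not overlap the gene itself. Those on either side of Rspo4 did not move alike. Angpt4 (chr2:151911207-151945337, GRCm38.p6), an angiopoietin gene that starts 36.5 kb past the end of Rspo4, averaged 48.8 ± 29.7 RPKM in the mandible and 6.30 ± 3.14 RPKM in the tibia (SD, n = 3 each), a log2 fold change of 2.70 (SE 0.67, limma adjusted p = 0.218, and 0.00140 with the dissection as a block). Psmf1, a proteasome inhibitor gene 98.5 kb before it, averaged 11.6 ± 1.25 RPKM in the mandible and 11.7 ± 4.26 RPKM in the tibia (0.04, adjusted p = 0.988). The neighbours of Rspo3, Rnf146 at 0.11 and Cenpw at -0.20, passed in neither model. Next to Rspo1, the log2 fold changes of 9930104L06Rik and Gnl2 were 0.90 and 0.43, and neither passed. Beside Rnf43, Supt4a was at -0.06, while Hsf5 was under the limit for testing.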
